A study of Mus musculus with 30 samples.

Results

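The effect of OSKM after 24 h of differentiation was examined as a comparison of cells re-seeded with and without doxycycline (dox). OSKM stands for Oct4, Sox2, Klf4 and cMyc, the 4 transcription factors that together can return differentiated cells to pluripotency. The cells had spent 24 h without 2i/LIF, were dissociated, and grew for a further 48 h in serum/LIF, either with dox (+dox) or without it (–dox). All genes with at least 1 FPKM (fragments scaled to transcript length and to the mapped fragments of the library) in either condition were taken, which gave 12708 of the 22477 genes in the deposited RNA-seq table, or 56.5%. Membership thus required expression in either condition and no response to dox. A gene under 1 FPKM in –dox or in +dox, however, entered only through the condition where it was higher. Of the 365 and 432 genes counted as higher and lower below, 198 and 223 reached 1 FPKM in both conditions. The gene that passed with the lowest value, Gm4262, stood at 0.579 FPKM in –dox against 1.00 FPKM in +dox, and the first gene left out, C1rl, at 0.637 and 0.999 FPKM.

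All groups used here came from 1 mouse line of secondary iPSCs, induced pluripotent stem cells that carry dox-inducible OSKM transgenes, GFP in place of one allele of Nanog and a constitutive nuclear RFP. The line was kept on mouse embryonic fibroblast feeders, and in the study's colony assay cells were also re-seeded onto such feeders. The methods do not say separately whether the wells used for RNA-seq held them. The series holds 30 samples in 15 conditions, with 2 replicates each, of which 4 samples form the 24 h pair. The other conditions used were a time course of 7 timepoints from 0 to 96 h of 2i/LIF withdrawal and 3 further dox pairs, re-seeded in the same way after 0, 48 or 96 h. Every dox pair had its own –dox condition, so no control was shared between pairs. Since no condition received dox without carrying the transgenes, dox itself and OSKM cannot be told apart. The table gives 1 value per condition, in which both replicates are combined, so no value below carries a spread or a test. Since the values are FPKM and not counts, the depth of each library is unknown. Taking the lowest values above 0 as 1 step put 93.6 steps (–dox) and 89.3 steps (+dox) in 1 FPKM of a 2 kb transcript. The 0 h pair had 101 (–dox) and 86.7 steps (+dox), the 48 and 96 h pairs 31.2 to 39.7, and the time course 29.7 to 47.6. By this estimate low values are more finely graded at 24 h than in the 48 and 96 h pairs and the time course. A gene was counted as changed when the plain ratio of its values was at least 2-fold.

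Pluripotent stem cells leave the naive state through a formative phase. During this exit, genes such as Esrrb and Nr0b1 are shut off and genes such as Fgf5 and Pou3f1 are switched on, before markers of the primitive streak, the neurectoderm or other lineages appear. LIF acts through Stat3 to sustain the naive network, and the OSKM factors bind many enhancers of the same network. In a bulk sample, fewer cells of a type and less RNA per cell cannot be told apart.

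At 24 h, 365 of the 12708 genes were at least 2-fold higher in +dox, which is 2.87%, and 432 were at least 2-fold lower, which is 3.40%. The remaining 11911 genes stayed under 2-fold, and 10512 genes (82.7%) differed by less than 1.5-fold. The median log2 ratio over all these genes was 0.02, and the middle 90% lay between -0.78 and 0.79. Together 6.27% of the genes were changed, and of these 45.8% were higher in +dox. The values summed to 650564 FPKM in –dox against 701242 FPKM in +dox, and scaling by these sums shifted every log2 ratio by 0.108, which gave 282 higher and 522 lower genes, or 35.1% higher. The share of changed genes depended on the level of expression. It was 20.2% of the 1395 genes whose larger value lay between 1 and 2 FPKM, 10.3% of 2177 genes between 2 and 5 FPKM, 5.36% of 2108 genes between 5 and 10 FPKM, 2.68% of 4859 genes between 10 and 50 FPKM, and 2.21% of 2169 genes at 50 FPKM or more. Thus 224 of the higher and 282 of the lower genes did not reach 5 FPKM. Among the 12 genes with a value of 0 in one condition, 4 were at 0 in –dox and 8 in +dox. The threshold cut through a continuum, from 2900093K20Rik at 2.0001-fold and Ppm1j at 1.9989-fold higher to Ccdc36 at 2.0009-fold and Sh3bp2 at 1.9989-fold lower.

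**Figure D1:**
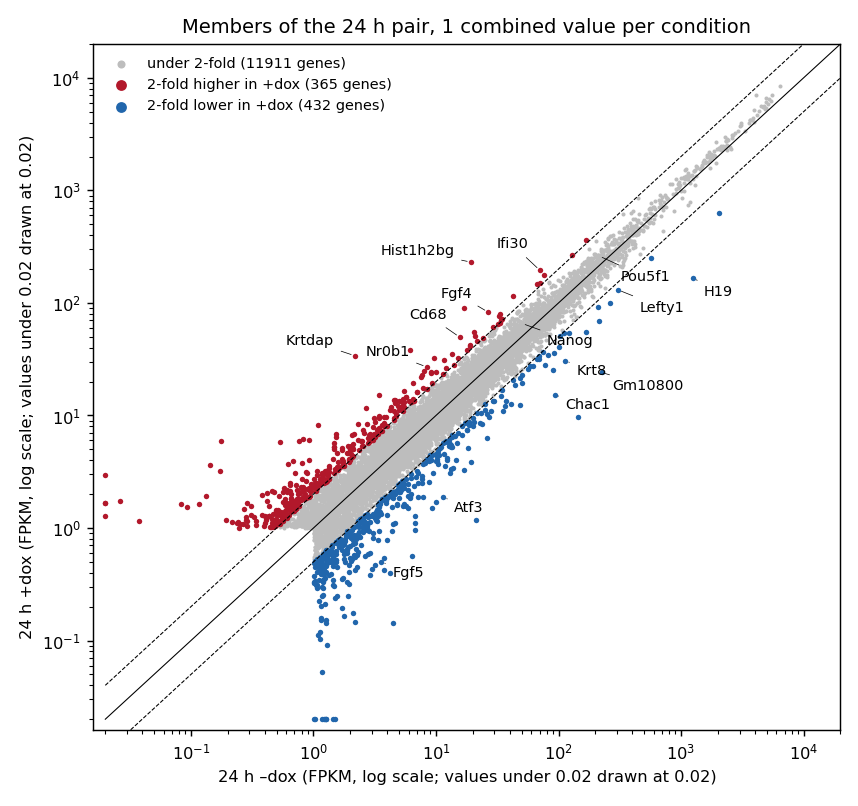
FPKM of the 12708 genes in 24 h –dox (x axis) and 24 h +dox (y axis), both on log scales, with 1 point per gene, the line of equal values (solid) and 2-fold lines (dashed), values under 0.02 FPKM being drawn at 0.02. Most points lie between the dashed lines, and the 365 higher (red) and 432 lower (blue) genes spread furthest at low FPKM.

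The OSKM genes themselves were read first, although the table cannot separate transgene from endogenous transcripts and gives their sum. None of the 4 reached 2-fold. Pou5f1, which encodes Oct4, was at 213 FPKM in –dox and 262 FPKM in +dox, Sox2 at 103 and 121 FPKM, and Klf4 at 10.4 and 14.2 FPKM. Myc was lower in +dox, at 44.3 against 22.4 FPKM, a log2 ratio of -0.98 that falls just short of 2-fold and passes it under either scaling, with -1.0025 by the median ratio and -1.09 by the sum. In undifferentiated cells re-seeded in the same way, Klf4 was at 84.8 FPKM in –dox against 66.7 FPKM in +dox, and Sox2 at 224 and 122 FPKM. After 48 h of differentiation all of Pou5f1, Sox2 and Klf4 were at least 2-fold higher in +dox, with log2 ratios of 1.49, 1.02 and 1.64. At 24 h the summed values of the same 3 genes differed by at most 0.45 on the log2 scale.

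The gene lists that follow can be read against the 6.27% of all genes that changed, a share that was 2.68% or less at 10 FPKM and above. Pluripotency genes were expressed in both conditions. All 20 genes of the naive list were expressed, and 15 of them had a higher value in +dox, with a median log2 ratio of 0.46 against 0.02 over all genes. The 4 genes past 2-fold upward were Fgf4, Esrrb, Nr0b1 and Tcl1. Fgf4, the FGF ligand made by pluripotent cells, stood at 26.5 FPKM in –dox and 83.0 FPKM in +dox. Nr0b1, an orphan nuclear receptor of the naive network, stood at 8.37 and 27.0 FPKM. Tcl1, a coactivator of Akt, had 4.72 and 10.4 FPKM. Esrrb, an orphan nuclear receptor that can stand in for Nanog, had 33.2 and 66.5 FPKM, a ratio that only just reaches 2-fold and misses it under either scaling. Klf5 was the one naive gene past 2-fold downward, from 61.8 FPKM in –dox to 27.5 FPKM in +dox. Nanog, with 50.1 and 65.9 FPKM, and Dppa5a, the most abundant of the list with 1913 and 2666 FPKM, stayed under 2-fold.

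The same naive genes in undifferentiated cells give the scale of these levels. Fgf4 was at 84.1 FPKM in 0 h –dox, above its 26.5 FPKM in 24 h –dox and next to its 83.0 FPKM in 24 h +dox. For Nr0b1 the 0 h –dox value was 79.1 FPKM, for Esrrb 151 FPKM, and for Tcl1 70.4 FPKM, each well above both 24 h values. Of the core list of general pluripotency genes, 0 of 15 changed. The list had a median log2 ratio of -0.23, with 4 genes above 0 and 11 below. Tdgf1, the Nodal co-receptor, was at 258 and 264 FPKM, Epcam at 175 and 193 FPKM, and Lin28a at 183 and 134 FPKM.

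Genes of the formative and primed states had lower values in +dox. All 18 of them had a log2 ratio below 0, with a median of -0.85, and 7 were at least 2-fold lower while 0 were higher. Pim2, a survival kinase, stood at 122 FPKM in –dox and 54.5 FPKM in +dox. Pou3f1, the octamer factor Oct6 of the epiblast, stood at 26.8 and 9.79 FPKM. Sox3, a relative of Sox2, had 7.02 and 3.19 FPKM, and the zinc finger gene Sall2 had 5.95 and 2.46 FPKM. Lef1, a Wnt effector, was at 5.73 and 1.55 FPKM. Fgf5, the textbook marker of the formative state, showed a 7.21-fold difference, from 3.59 FPKM in –dox to 0.498 FPKM in +dox. It was counted as expressed through –dox alone, and with 1 FPKM added its log2 ratio was -1.62. Otx2, at 17.9 and 9.01 FPKM, missed the threshold at 1.98-fold, and the de novo methylation genes Dnmt3l and Dnmt3b, at 241 and 195 FPKM and at 195 and 141 FPKM, differed little. In the time course, where the cells stayed without 2i/LIF, Fgf5 started from 0.164 FPKM and reached 10.3 FPKM by 24 h and 37.3 FPKM by 48 h, so that both re-seeded conditions at 24 h lay below the timepoint from which the cells were taken.

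Lineage markers differed in how many were expressed. Of 20 genes of the primitive streak, mesoderm and definitive endoderm, 4 reached 1 FPKM. Among these, Fgf8 stood at 3.15 (–dox) and 0.465 FPKM (+dox), Hand1 at 3.04 and 0.821 FPKM, and Eomes at 1.78 and 0.526 FPKM. All of these named genes were at least 2-fold lower in +dox. They were under 1 FPKM there, so they were counted as expressed through –dox alone. With 1 FPKM added, Eomes fell under 2-fold, at a log2 ratio of -0.87. Of the 13 trophoblast genes, 9 reached 1 FPKM and 4 were lower, namely Eomes, Hand1, Krt7 and Plac1. Plac1, an X-linked placental gene, showed the widest difference of these, 11.2-fold, with 6.38 (–dox) and 0.568 FPKM (+dox). Plac1 too was counted as expressed through –dox alone. The defining trophoblast factors Cdx2 and Elf5 were near 0 in both conditions, at 0.259 and 0.0742 FPKM and at 0.179 and 0.121 FPKM. In the extraembryonic endoderm list 1 of 9 expressed genes changed, Dab2, an endocytic adaptor, with 10.2 and 4.08 FPKM, while Gata4 stood at 1.46 and 1.07 FPKM. In the neurectoderm list 1 of 8 changed, Nes, the intermediate filament gene of neural progenitors, with 18.01 and 7.48 FPKM, while Sox1 was at 1.37 and 0.949 FPKM.

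Of genes that mark other cell types the wells could hold, few were expressed. The 20 fibroblast markers summed to 28.2 FPKM in –dox against 38.0 FPKM in +dox, and 8 reached 1 FPKM. The collagen genes Col1a1 and Col3a1 stood at 1.54 and 2.07 FPKM and at 0.247 and 0.349 FPKM. The one marker past 2-fold was S100a4, a calcium-binding protein gene that is not restricted to fibroblasts, with 2.05 (–dox) and 6.70 FPKM (+dox). Of 11 macrophage and blood markers only Cd68 reached 1 FPKM, and the whole list summed to 17.1 and 50.8 FPKM, nearly all of it Cd68. Cd68, which encodes a lysosomal membrane protein, stood at 15.6 FPKM in –dox and 49.8 FPKM in +dox, while Ptprc was at 0.0102 and 0 FPKM, Csf1r at 0.141 and 0.107 FPKM and Lyz2 at 0.0189 and 0 FPKM. Of 12 endothelial genes 5 reached 1 FPKM, with 3 log2 ratios above 0, 2 below and a median of 0.39. The whole list summed to 30.4 FPKM in –dox and 39.0 FPKM in +dox. Flt1, at 1.47 and 0.302 FPKM, and Esam, at 1.22 and 0.394 FPKM, were at least 2-fold lower. Both were under 1 FPKM in +dox and fell under 2-fold with 1 FPKM added. The part of other cells in any difference was not tested.

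The 15 largest upward and 15 largest downward ratios were taken among the 7028 genes that reach 10 FPKM in one value and have at least 0.1 FPKM in the other. Krtdap, which encodes a secreted protein of differentiating keratinocytes, headed the higher genes with 2.17 (–dox) and 34.0 FPKM (+dox), a 15.7-fold difference. It was followed by the histone genes Hist1h2bg, Hist1h2ag and Hist1h2ab, with log2 ratios of 3.59, 2.64 and 2.42. Of 59 expressed genes of the Hist clusters, 4 were higher and 13 lower, with a median log2 ratio of -0.43. Single values of such genes are uncertain, as set out under the other observations. Next came Gm10197 (2.13), Lrrc34 (2.12), Jam2 (1.77), Nr0b1 (1.69), Cd68 (1.68), Fgf4 (1.65), Fetub (1.64), Krt42 (1.61), Rab3il1 (1.60), Tspan17 (1.58) and Gngt2 (1.58), with the log2 ratio in parentheses. Lrrc34, a leucine-rich repeat gene expressed in pluripotent cells, went from 2.67 FPKM in –dox to 11.6 FPKM in +dox. Jam2, a junctional adhesion molecule, went from 9.58 to 32.7 FPKM. The next gene in rank, Herc1, had a log2 ratio of 1.58 as well, so the end of the list is arbitrary.

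The largest downward ratios belonged to Gm10801, Gm26870 and Gm10800, predicted gene models within repeated sequence whose reads cannot be placed on a single copy, with log2 ratios of -4.17, -3.90 and -3.22. H19, the imprinted non-coding RNA, followed with 1256 (–dox) and 166 FPKM (+dox), a 7.55-fold difference. Atf3, a stress-induced transcription factor, went from 11.5 to 1.87 FPKM, and Chac1, a glutathione-degrading enzyme of the amino acid stress response, from 93.1 to 15.2 FPKM. The others were Esx1 (-2.57), Pcdh1 (-2.36), 3830417A13Rik (-2.32), Pfkfb3 (-2.10), Rhox9 (-2.03), Gbp2 (-2.01), Krt7 (-1.99), Id3 (-1.97) and Krt8 (-1.90), again with the log2 ratio in parentheses. Esx1 is an X-linked homeobox gene of the placenta, with 10.0 (–dox) and 1.69 FPKM (+dox). Pfkfb3, an activator of glycolysis, stood at 13.1 and 3.05 FPKM.

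**Figure D2:**
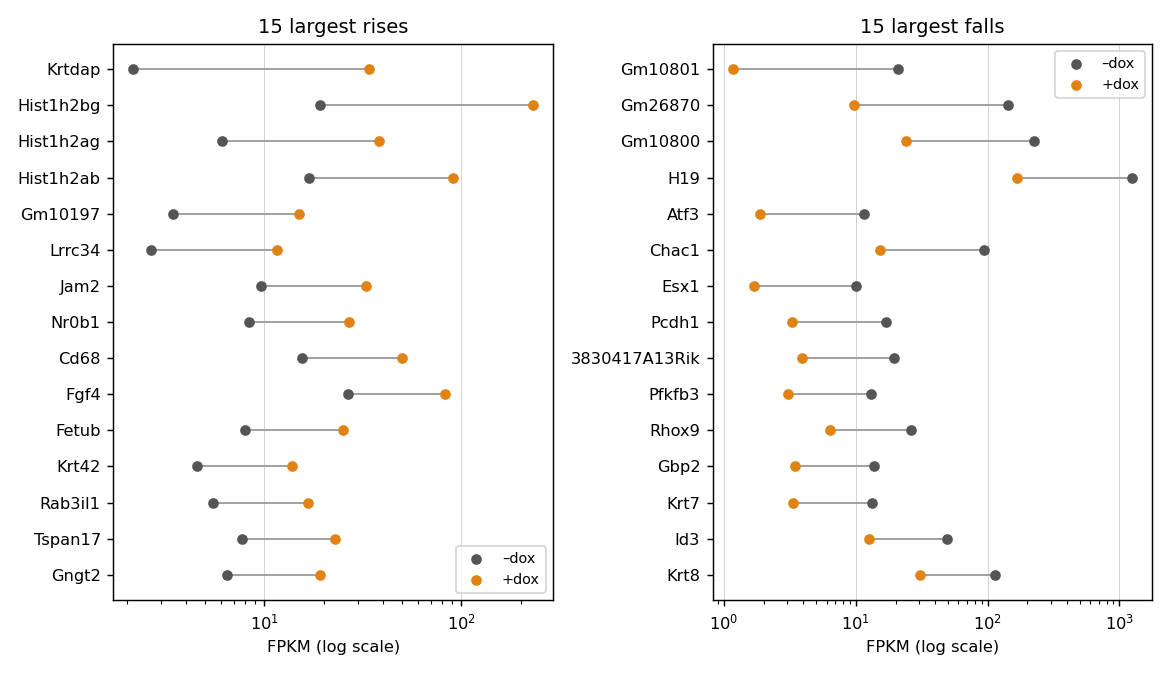
FPKM in 24 h –dox (grey) and 24 h +dox (orange), on a log scale, of the 15 genes with the largest upward and the 15 with the largest downward ratio among genes that reach 10 FPKM, 1 combined value per point. Krtdap shows the widest gap of the higher genes, from 2.17 to 34.0 FPKM, and H19 the highest level of the lower genes, from 1256 to 166 FPKM.

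By expression, the top of the higher genes was Cstb, the cathepsin inhibitor cystatin B, with 168 (–dox) and 366 FPKM (+dox). Ldhb, a lactate dehydrogenase subunit, had 129 and 268 FPKM, and missed 2-fold when the values were scaled by their sums. Ifi30, a lysosomal thiol reductase, had 70.2 and 196 FPKM, and Cox6b2, a cytochrome oxidase subunit best known from testis, 75.7 and 178 FPKM. Hist1h2bg was the other, at 19.2 and 231 FPKM. Of the lower genes, the highest were Hist1h2ao, at 2030.1 and 636 FPKM, H19, Txnip, an inhibitor of thioredoxin, at 571 and 251 FPKM, Lefty1, and Peg10.

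The promoters of the 3 genes with the largest upward and the 3 with the largest downward ratio that have an entry in the reference are shown so that the changed genes can be seen as sequence. They are the 250 bases before the start site, from RefSeq on GRCm38.p6, read 5′ to 3′ on the strand of the gene. Capitals mark a match, on either strand, to one of 6 short motifs. The octamer bound by Oct4 and its relatives was searched as ATGCAAAT. For the SOX proteins the letters were ACAATGG, and for the KLF proteins, which bind GC-rich boxes, they were GGGTGTGG. The E-box bound by Myc with its partner Max was searched as CACGTG. The TATA box, found in promoters with a sharply set start, was searched as TATAAA, and the half-site of the cyclic AMP response element, bound by factors of the Atf and Creb family, as TGACGT.
Krtdap (chr7:30787655-30787904, plus strand, higher in +dox): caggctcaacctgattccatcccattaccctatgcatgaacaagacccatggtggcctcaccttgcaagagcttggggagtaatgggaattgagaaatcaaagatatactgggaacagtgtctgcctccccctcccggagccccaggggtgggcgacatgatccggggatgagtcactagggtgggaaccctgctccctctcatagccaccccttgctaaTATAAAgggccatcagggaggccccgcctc
Lrrc34 (chr3:30647819-30648068, minus strand, higher in +dox): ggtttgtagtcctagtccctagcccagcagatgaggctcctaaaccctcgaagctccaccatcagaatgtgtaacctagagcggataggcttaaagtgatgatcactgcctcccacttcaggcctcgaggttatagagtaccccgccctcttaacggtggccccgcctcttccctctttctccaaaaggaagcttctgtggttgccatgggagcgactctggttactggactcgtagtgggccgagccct
Nr0b1 (chrX:86191525-86191774, plus strand, higher in +dox): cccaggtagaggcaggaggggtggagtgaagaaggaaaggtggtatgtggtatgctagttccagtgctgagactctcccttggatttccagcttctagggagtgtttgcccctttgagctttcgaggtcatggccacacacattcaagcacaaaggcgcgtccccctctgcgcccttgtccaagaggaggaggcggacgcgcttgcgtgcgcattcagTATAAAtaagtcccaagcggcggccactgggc
Atf3 (chr1:191183334-191183583, minus strand, lower in +dox): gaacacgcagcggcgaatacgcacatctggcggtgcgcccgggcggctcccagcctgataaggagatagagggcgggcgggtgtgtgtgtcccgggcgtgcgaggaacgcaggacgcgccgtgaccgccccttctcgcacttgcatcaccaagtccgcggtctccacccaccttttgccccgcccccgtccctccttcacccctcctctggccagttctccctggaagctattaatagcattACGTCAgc
Chac1 (chr2:119350992-119351241, plus strand, lower in +dox): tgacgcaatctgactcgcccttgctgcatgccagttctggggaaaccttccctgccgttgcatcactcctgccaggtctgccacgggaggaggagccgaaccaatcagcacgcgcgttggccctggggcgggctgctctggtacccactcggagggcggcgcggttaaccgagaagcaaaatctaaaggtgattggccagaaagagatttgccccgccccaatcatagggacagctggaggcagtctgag
Esx1 (chrX:137120327-137120576, minus strand, lower in +dox): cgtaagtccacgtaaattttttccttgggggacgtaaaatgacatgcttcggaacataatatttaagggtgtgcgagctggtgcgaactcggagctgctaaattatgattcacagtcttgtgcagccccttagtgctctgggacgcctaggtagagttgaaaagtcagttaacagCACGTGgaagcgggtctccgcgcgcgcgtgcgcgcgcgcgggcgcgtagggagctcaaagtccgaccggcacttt

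The promoters of Krtdap and Nr0b1 each hold a TATA box within the last 50 bases before the start site, that of Atf3 a response element half-site and that of Esx1 an E-box, while a match to any of the 6 motifs is missing from the windows of Lrrc34 and Chac1. In windows of 300 bases, which reach 50 bases past the start, TATAAA is in 14.2% of the 27025 promoters in the table, in 6.41% of the 9362 found for the expressed genes, and in 12.2% of 238 found for higher and 13.9% of 274 found for lower genes. For the octamer these shares are 1.75%, 1.34%, 0.42% and 1.09%, for the SOX motif 3.71%, 1.85%, 2.52% and 3.28%, and for the KLF motif 3.57%, 3.78%, 2.52% and 4.01%. The E-box is in 7.24%, 10.7%, 6.72% and 8.76%, and TGACGT in 7.64%, 12.3%, 6.72% and 7.66%. A match describes the letters in the window and not a bound site.

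Epithelial genes split by type. In the list of keratins and the cornified layer, 15 of 19 genes were expressed, 4 higher and 4 lower. The 4 lower genes were keratins of simple epithelia. Krt18 stood at 215 FPKM in –dox and 69.4 FPKM in +dox, Krt8 at 114 and 30.6 FPKM, Krt19 at 26.1 and 10.3 FPKM, and Krt7 at 13.2 and 3.32 FPKM. Besides Krtdap, the higher genes were Krt42, with 4.54 and 13.8 FPKM, Fam25c, with 17.7 and 37.8 FPKM, and Dmkn, which encodes dermokine, with 0.842 and 1.90 FPKM. Fam25c fell under 2-fold when the values were scaled by their sums, and Dmkn when 1 FPKM was added to them (log2 ratios of 0.98 and 0.66). Dmkn was counted as expressed through +dox alone. In undifferentiated cells, Krt42 was at 40.7 FPKM in –dox and 67.8 FPKM in +dox, so both of its 24 h levels lay below these, whereas Krtdap was at 2.41 and 13.1 FPKM. Cell junction genes differed little. Of 19 expressed genes of that list only Cdh3, which encodes P-cadherin, changed, with 9.30 and 19.5 FPKM, and its log2 ratio of 1.07 became 0.96 when scaled by the sums and 0.99 with 1 FPKM added, both under 2-fold. By contrast Cdh1, at 134 and 133 FPKM, and Cldn6, at 114 and 116 FPKM, were almost equal. In the list of mesenchymal transition genes 1 of 12 changed, Snai1, with 3.27 and 1.38 FPKM.

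Most imprinted genes had lower values in +dox. Of 19 genes, all expressed, 4 were at least 2-fold lower and 0 higher, 15 had a log2 ratio below 0, and the median was -0.47. Their sum went from 3040 FPKM in –dox to 1526 FPKM in +dox, and H19 made up most of this difference. Igf2, the growth factor gene next to H19, went from 18.3 to 5.16 FPKM, Peg10, a retrotransposon-derived gene needed in the placenta, from 263 to 101 FPKM, and the zinc finger gene Plagl1 from 5.89 to 2.18 FPKM. The maternally expressed Rian and Meg3, at 494 and 434 FPKM and at 347 and 252 FPKM, stayed under 2-fold, as did Mest, at 48.3 and 57.4 FPKM. Among 20 expressed germline genes 2 were lower, the X-linked homeobox genes Rhox6, with 35.5 and 10.9 FPKM, and Rhox9, with 26.1 and 6.37 FPKM, whereas Rhox5 was at 309 and 424 FPKM.

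Of 16 FGF and ERK feedback genes, 1 was higher and 3 lower, where 2.87% and 3.40% of all genes were. The ligands went opposite ways, Fgf4 being higher and Fgf5 and Fgf8 lower, and the receptor gene Fgfr2 went from 23.7 to 8.37 FPKM. The ERK targets Etv5, at 101 and 123 FPKM, Spry4, at 17.7 and 20.9 FPKM, and Dusp6, at 56.4 and 29.2 FPKM, stayed under 2-fold. In the Nodal and BMP list 1 of 16 was higher and 3 lower. Lefty1, an inhibitor and target of Nodal, went from 306 to 131 FPKM, and the BMP target Id3 from 48.9 to 12.5 FPKM. Id1, another BMP target, was at 89.7 and 97.7 FPKM, and Id4 went from 1.01 to 2.32 FPKM. Nodal itself was at 37.6 and 28.8 FPKM. Of 11 expressed Wnt targets, Rnf43 was higher, with 0.268 and 1.09 FPKM, and Sp5, with 1.16 and 0.160 FPKM, and Lef1 were lower, while Axin2 stood at 2.15 and 1.55 FPKM. Rnf43 was counted as expressed through +dox alone, and Sp5 through –dox alone. Of 16 genes of the LIF and Stat3 pathway 0 changed, and their median log2 ratio of 0.03 became -0.07 when scaled by the sums. Socs3, the feedback inhibitor of the pathway, was at 26.4 and 28.7 FPKM.

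The immediate early and stress genes that passed 2-fold were all lower. Over all genes, 3.40% were lower and 2.87% higher. All 12 expressed AP-1 and immediate early genes had log2 ratios below 0, with a median of -0.77, and 2 passed 2-fold, Atf3 and Jun, the latter with 18.5 (–dox) and 8.30 FPKM (+dox). Egr1, at 25.8 and 13.3 FPKM, and Fos, at 3.85 and 1.97 FPKM, missed the threshold. In the amino acid stress list, 3 of 14 were lower and 0 higher, with 12 log2 ratios below 0 and 2 above, the lower genes being Chac1, Trib3, a pseudokinase induced by Atf4, with 69.1 and 31.8 FPKM, and Vldlr, with 5.07 and 2.53 FPKM. Atf4 itself was at 247 and 170.5 FPKM, and its target Asns at 277 and 272 FPKM. Contractile genes and targets of SRF or Yap gave 4 lower of 17, with a median of -0.49. Cyr61, a matricellular Yap target, went from 90.2 to 25.2 FPKM, Amotl2 from 111 to 54.2 FPKM, Tagln, which encodes the actin-binding transgelin, from 103 to 50.9 FPKM, and Ankrd1 from 1.95 to 0.848 FPKM. Ankrd1 was counted as expressed through –dox alone.

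Immune genes moved in both directions. Of 13 expressed interferon response genes 4 were lower, among them Irf1, at 29.6 and 13.5 FPKM, and the GTPase gene Gbp2, at 13.8 and 3.43 FPKM, with Oasl2 at 2.81 and 0.591 FPKM and Isg15 at 1.71 and 0.349 FPKM. Ifitm1, the most abundant of the list, was at 336 and 384 FPKM. In antigen presentation, B2m, the light chain of MHC class I, went from 67.0 to 146 FPKM, while Erap1, at 2.52 and 1.03 FPKM, and the immunoproteasome gene Psmb8, at 2.25 and 0.448 FPKM, were lower and the heavy chain H2-K1 stood at 41.3 and 24.8 FPKM. Of 8 expressed chemokine and acute phase genes, Saa3 (1.70 and 4.97 FPKM) and Ccl2 (1.73 and 3.93 FPKM) were higher and Cxcl10 (3.46 and 1.43 FPKM) and Tnfaip3 (1.27 and 0.538 FPKM) lower. Oasl2, Isg15, Psmb8 and Tnfaip3 were under 1 FPKM in +dox, so they were counted as expressed through –dox alone.

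In several lists 0 genes passed 2-fold, against 6.27% of all genes and 2.21% of those at 50 FPKM or more, shares at which lists of this size hold few or 0 such genes. These were the p53 targets (18 expressed genes, median log2 ratio 0.22), the Myc targets of ribosome production and growth (18, -0.09), the Myc and Mxd network (11, -0.02), DNA methylation (11, -0.09), glycolysis and hypoxia (18, -0.08), cholesterol synthesis (20, 0.18), threonine, glycine and one-carbon metabolism (12, 0.18) and housekeeping genes (14, 0.15). Cdkn1a, the p53 target that encodes p21, was at 16.5 and 22.0 FPKM, Ncl, a Myc target in the nucleolus, at 1732 and 1581 FPKM, and Gapdh at 1871 and 2255 FPKM. Among 14 expressed G1 cyclins and cell cycle inhibitors, Ccne2 was lower, with 13.4 and 6.43 FPKM, and Cdkn2b higher, with 1.77 and 3.61 FPKM. Both fell under 2-fold with 1 FPKM added, at log2 ratios of -0.96 and 0.73, and Cdkn2b also when scaled by the sums, at 0.92. Of the two-cell-like list 2 genes reached 1 FPKM. They were Zscan4d, at 1.17 and 0.0522 FPKM, and Zscan4f, at 1.44 and 0.0130 FPKM, near-identical copies between which reads may be split. Both were counted as expressed through –dox alone.

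**Figure D3:**
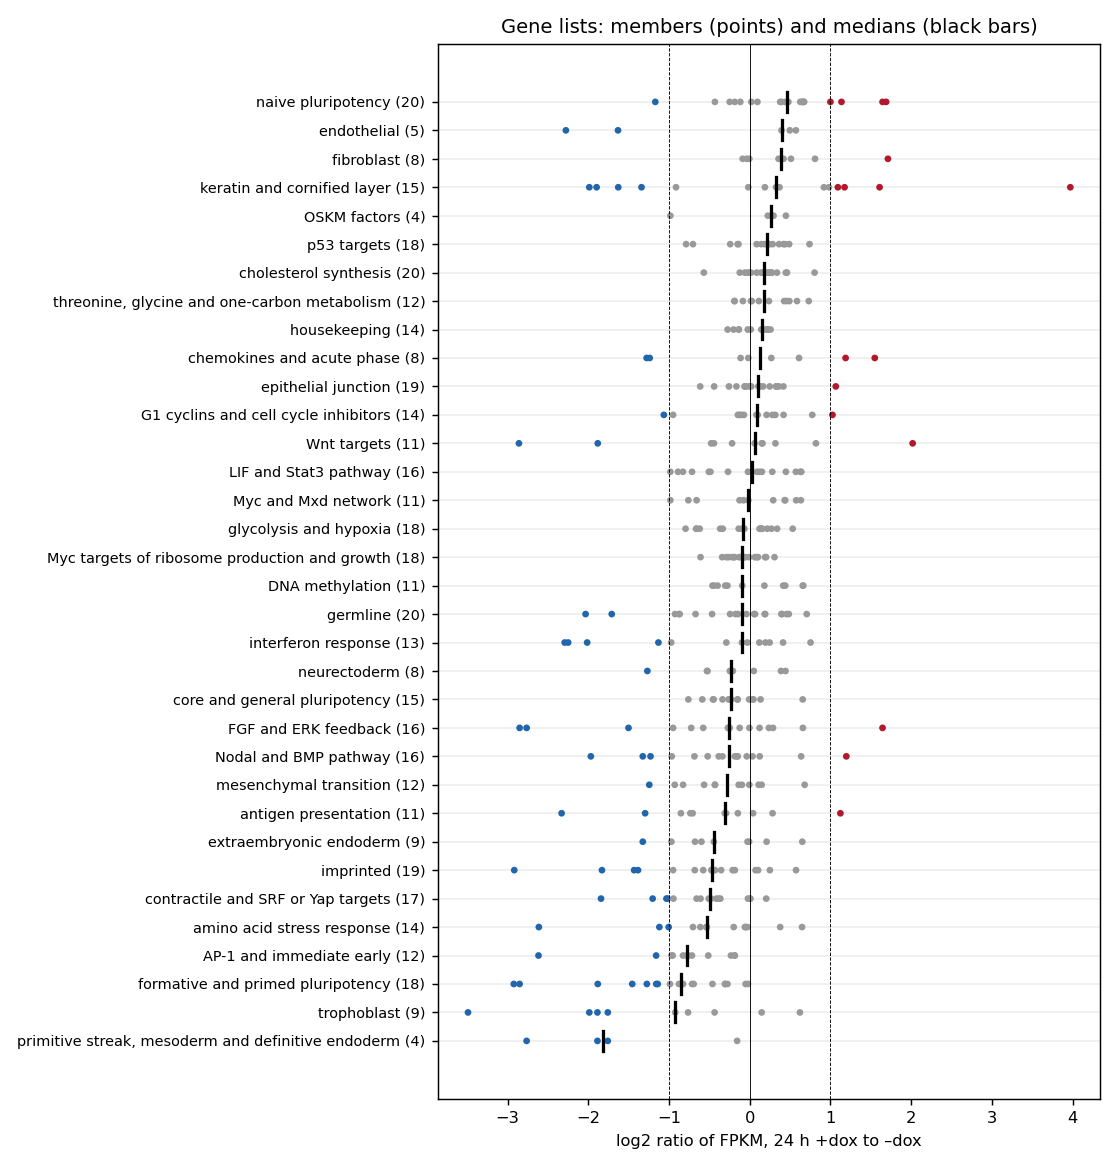
Log2 ratio of FPKM, 24 h +dox to –dox, for the expressed members of each gene list with at least 4 of them (number in parentheses), 1 point per gene, red or blue past 2-fold, with the list median as a black bar and 2-fold as dashed lines. The formative list lies wholly left of 0 (median -0.85), the naive list mostly right of it (median 0.46), and most metabolic lists lie close to 0.

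Some changed genes were neighbours. Neighbours were taken among the expressed genes only, so genes that were not expressed may lie between them. How often changed genes would lie side by side by position alone was not tested. The neighbours named here were chosen after their values were seen. On chromosome 3 of mm10, Lrrc34, Lrriq4 and Lrrc31 lie between 30624267 and 30699843 and were all higher, Lrriq4 at 0.280 and 1.24 FPKM and Lrrc31 at 0.529 and 5.84 FPKM. Dmkn and Krtdap lie side by side on chromosome 7 (30763756 to 30791097), and so do Fgf3, at 0.670 and 1.43 FPKM, and Fgf4 (144838083 to 144865243). Lrriq4, Lrrc31, Dmkn and Fgf3 were under 1 FPKM in –dox, so they were counted as expressed through +dox alone. H19 and Igf2 on chromosome 7 (142575529 to 142666816), the keratin genes Krt7, Krt8 and Krt18 on chromosome 15 (101411043 to 102032027), and Rhox6 and Rhox9 on the X chromosome (37826910 to 37901770) were neighbours with lower values in +dox. Overlapping neighbours such as Lrrc34 and Lrriq4 may share reads.

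The changed genes were then followed in conditions that had no part in their choice, first the time course. Their median levels in 24 h –dox were 1.13 FPKM (higher genes) and 2.90 FPKM (lower genes), against 11.0 FPKM over all genes. The shares over all genes given below were not matched for level. In the 24 h pair, genes at low levels passed 2-fold more often. The 365 higher genes went down during withdrawal, with a median log2 ratio to 0 h that read -0.58, -0.90 and -1.09 after 24, 48 and 96 h, against 0.01, 0.02 and -0.0005 over all 12708 genes. For the 432 lower genes the same medians were -0.01, 0.51 and 1.22, so that this set went up only after 24 h. Genes with a value of 0 in either condition have no ratio and were left out of these medians. The medians thus covered 338, 337 and 337 of the higher genes and 403, 406 and 406 of the lower genes. At 24 h, 105 of the higher genes (28.8%) were 2-fold below 0 h, against 10.6% of all, and 39 (10.7%) were 2-fold above it, against 7.22%. By 96 h the former were 167 (45.8%, against 12.7%) and the latter 45 (12.3%, against 15.4%). Of the lower genes, 75 (17.4%, against 7.22%) were up and 91 (21.1%, against 10.6%) down at 24 h. At 96 h, 211 (48.8%, against 15.4%) were up and 48 (11.1%, against 12.7%) down. The highest of the 7 time course values lay at 0 h for 142 higher genes (38.9%) and 57 lower genes (13.2%), compared with 22.0% of all genes, and at 96 h for 40 (11.0%) and 173 (40.0%), compared with 22.8%. Of the 15 genes with the largest upward ratios 14 were lower at 96 h than at 0 h of the time course, all except Hist1h2ab, and 14 of the 15 with the largest downward ratios were higher at 96 h, all except Rhox9.

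Single genes show how this looked. At 0, 24 and 96 h of the time course, Jam2 had values of 222, 40.0 and 1.04 FPKM, and Lrrc34 of 40.4, 11.5 and 0.571 FPKM. Krt8 had 12.8, 10.2 and 272 FPKM, and Atf3 had 2.53, 0.291 and 14.2 FPKM. Krtdap had no large early value, its values of 2.46, 5.83 and 0.586 FPKM all lying below its 34.0 FPKM in 24 h +dox.

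**Figure D4:**
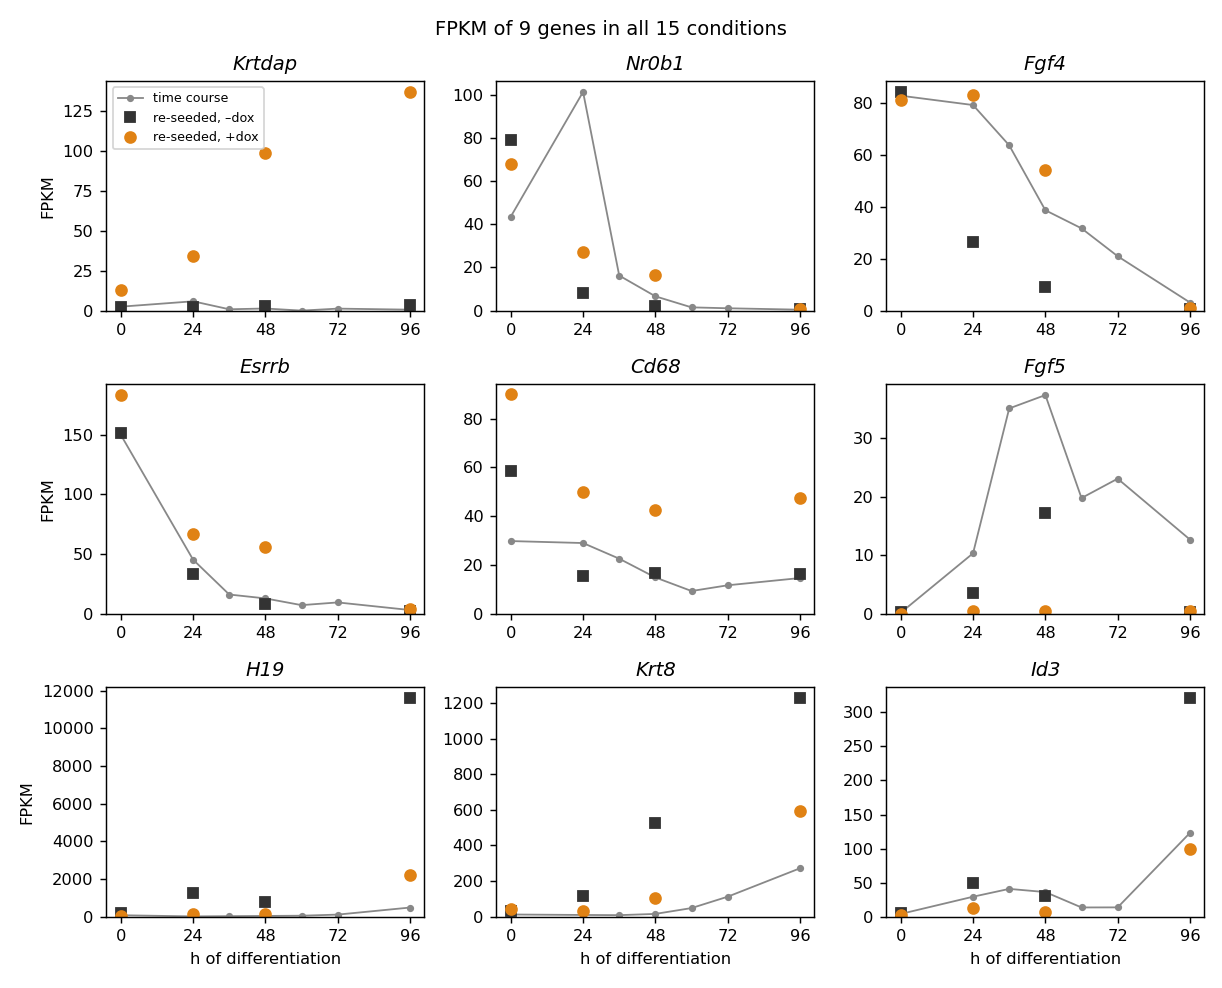
FPKM of 9 genes against hours of differentiation, in the time course (grey line) and after re-seeding in –dox (black squares) or +dox (orange circles), 1 combined value per point, each panel with its own axis from 0. At 24 h the +dox value of Krtdap, Nr0b1, Fgf4, Esrrb and Cd68 lies above the –dox value, and that of Fgf5, H19, Krt8 and Id3 below it.

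The other dox pairs gave a second view. Here too the shares over all genes were not matched for the level of expression. After 48 h of differentiation, 148 of the 365 higher genes (40.5%) were again 2-fold higher in +dox, against 5.66% of all genes, and 17 (4.66%) were lower, against 5.00%. Of the 432 lower genes, 201 (46.5%) were again lower and 12 (2.78%) higher. In undifferentiated cells the shares were smaller, with 60 higher genes (16.4%) again higher, against 2.56%, and 64 lower genes (14.8%) again lower, against 4.62%. In that pair 18 higher genes (4.93%) were lower, against 4.62%, and 20 lower genes (4.63%) were higher, against 2.56%. After 96 h, 70 higher genes (19.2%) were again higher, against 5.63%, and 40 (11.0%) were lower, against 7.26%, while 150 lower genes (34.7%) were again lower and 30 (6.94%) higher. The median log2 ratio of the higher genes was 0.29, 0.99 and 0.25 in the 0, 48 and 96 h pairs, and that of the lower genes -0.40, -1.04 and -0.71, whereas over all genes it was 0.04, -0.01 and 0.01. Genes with a value of 0 in either condition were left out here too. The medians covered 359, 341 and 326 of the higher genes and 413, 410 and 403 of the lower genes. As a share of the other list, the 148 genes made up 20.6% of those higher at 48 h and the 201 genes 31.6% of those lower.

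Not all changes recurred. In all, 169 of the higher genes were 2-fold higher in no other pair, and 149 of the lower genes were 2-fold lower in no other pair. A change in the opposite direction in another pair did not remove a gene from these counts. Of the 169 and 149 genes, 124 and 102 did not reach 5 FPKM at 24 h. The matching shares over all genes were not counted, here or for all 4 pairs, so these counts do not measure recurrence. In all 4 pairs 15 genes were higher and 12 lower. The higher ones included Krtdap, Fam25c, S100a4, Aqp3, a water and glycerol channel, with 6.03 and 13.3 FPKM at 24 h, and Emp1, an epithelial membrane protein, with 1.53 and 6.89 FPKM. The lower ones included H19, Id3, Lef1, Irf1, Hand1 and Car4, a membrane-bound carbonic anhydrase, with 169 and 54.7 FPKM. Aqp3, Emp1 and Car4 were named after their values were seen. Krtdap differed more with longer differentiation, with 2.41 and 13.1 FPKM in the 0 h pair, 2.98 and 99.03 FPKM in the 48 h pair and 3.72 and 137 FPKM in the 96 h pair. Fgf4 behaved otherwise, at 84.1 and 81.1 FPKM in the 0 h pair, 9.14 and 54.0 FPKM in the 48 h pair and 0.581 and 1.16 FPKM in the 96 h pair, so that a difference of 2-fold with a level above 10 FPKM was found after 24 and 48 h. Lefty1 changed direction, being lower in +dox at 0, 24 and 48 h and at 1.32 and 4.54 FPKM in the 96 h pair.

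**Figure D5:**
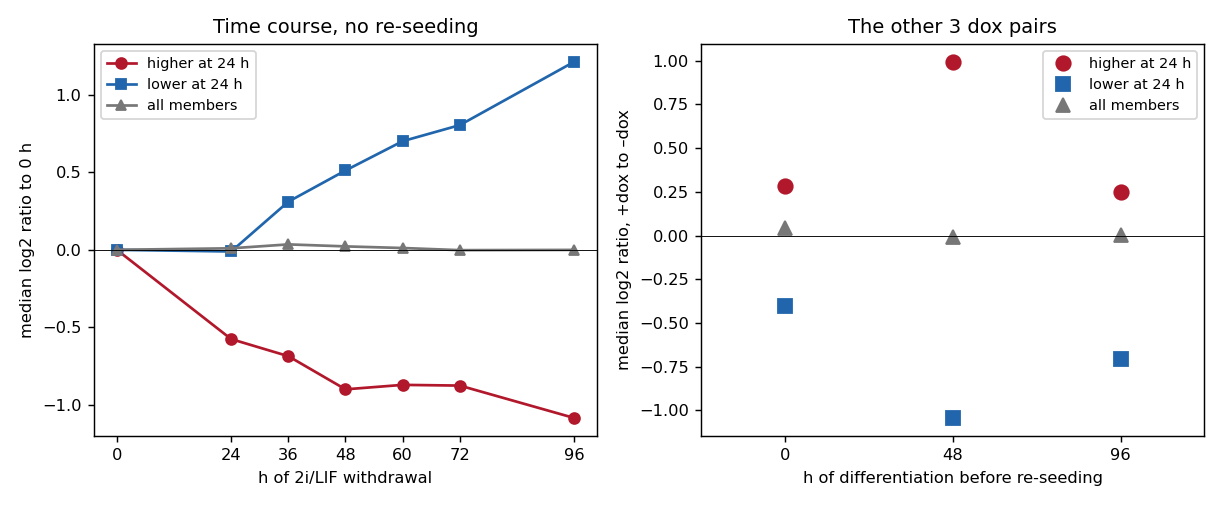
Median log2 ratios of the 365 genes higher (red circles) and 432 genes lower (blue squares) in +dox at 24 h, and of all 12708 genes (grey triangles), against hours of withdrawal relative to 0 h of the time course (left) and in the 0, 48 and 96 h dox pairs (right). Genes with a value of 0 in either condition of a ratio are left out of its median. In the time course the higher genes reach -1.09 and the lower genes 1.22 at 96 h, and in the dox pairs both sets keep the sign of their 24 h difference, most clearly at 48 h (0.99 and -1.04).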

How the data were processed

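RNA-seq was performed by the authors on polyadenylated RNA of 30 samples. Per the labels and the methods, reads were aligned to mm10 with TopHat2 2.0.14 and quantified on Gencode transcripts with Cufflinks 2.2.1, and the authors deposited 1 FPKM value per gene and condition, made by Cuffdiff from both replicates. FPKM is relative to transcript length and library size. A further 5 columns hold the authors' own calls of regulated genes and were not used.

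Expressed genes, those at 1 FPKM or more in –dox or +dox of the 24 h pair, were kept, and plain ratios of the deposited values were taken in Python 3.11.15 with pandas 2.3.3, without a pseudocount. Genes with a value of 0 in either condition of a ratio were left out of the medians of log2 ratios. With 1 value per condition no test was possible, and a gene counted as changed at 2-fold. The ratio script was tested on simulated data. Named genes were the OSKM genes and Nanog, the 15 largest ratios in each direction among genes that reach 10 FPKM with at least 0.1 FPKM in the other value, the 5 highest-expressed changed genes in each direction, up to 6 changed genes per list by expression (of which 1 is not reported here), and promoters of 3 genes per direction. Unchanged list members set beside them, genes under 1 FPKM, neighbours and genes changed in all 4 pairs were named after their values were seen. The members and lists were chosen with earlier results of these data known. Of the lists, the mitochondrially encoded one had 0 of 13 genes in the table. Gene positions came from Gencode M21, which held 94.9% of the symbols, and promoters from RefSeq on GRCm38.p6. Alternatives were other minimums and fold thresholds, added constants and scaling by the median ratio or by the sum.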

Additional observations from a re-analysis of the deposited data

How the results depend on the processing

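The counts of changed genes depended on the minimum and the threshold. Of genes higher and lower in +dox there were 365 and 432 as reported, 1827 and 3285 with no minimum, 141 and 150 with a minimum of 5 FPKM, 198 and 223 with at least 1 FPKM in both values, 1142 and 1054 at 1.5-fold, 93 and 141 at 3-fold, and 131 and 167 after adding 1 FPKM. Adding 0.1 FPKM gave 321 and 386, the median ratio 351 and 448, and the sum 282 and 522. Scaling by the sum turned 4 of 36 list medians from above to below 0, to -0.0013 for epithelial junctions, -0.0737 for LIF and Stat3, -0.0473 for Wnt targets and -0.0174 for G1 cyclins and inhibitors. In the time course, the median of the higher genes at 96 h was -1.31 with the 5 FPKM minimum, and that of the lower genes 1.68 with it and 1.98 at 3-fold. In the 48 h pair the higher genes had 1.29 with that minimum and 1.11 at 3-fold, and the lower genes -1.46 at 3-fold. Of 291 recomputed values of 97 named genes, 0 changed sign, 26 fell under 2-fold and 2, both of Myc, passed it. Those that fell under it with 1 FPKM added were Esrrb, Tcl1, Cdh3, Dmkn, Rnf43, Id4, Ccl2, Cdkn2b, Sox3, Eomes, Snai1, Ankrd1, Sp5, Erap1, Cxcl10, Tnfaip3, Ccne2, Vldlr, Flt1 and Esam. Under sum scaling they were Ldhb, Esrrb, Cdh3, Fam25c and Cdkn2b, and under the median ratio Esrrb. No paired analysis was possible because the table gives 1 value per condition, and for the same reason no replicate could be left out. The low values, where most changed genes lie, carry the largest counting error, which these files do not give.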

Other observations

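Histone genes stood at both ends of the ratios. Of 66 genes of the Hist clusters in the table, 59 reached 1 FPKM, 4 were at least 2-fold higher in +dox and 13 lower, with a median log2 ratio of -0.43. Their values summed to 5072.4 FPKM in –dox and 3224.1 FPKM in +dox. Most of these genes are near-identical copies whose transcripts lack a poly(A) tail, so single values after selection for polyadenylated RNA are uncertain.

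On the X chromosome, 8 of 437 expressed genes (1.83%) were higher and 27 (6.18%) lower. Over the autosomes the share of higher genes ranged from 1.41% on chromosome 14 to 4.03% on chromosome 15, and that of lower genes from 1.46% on chromosome 19 to 4.74% on chromosome 13. Protein-coding genes made up 81.7% of the higher and 90.3% of the lower genes with a known biotype, against 94.5% of all expressed genes. The table gives 27 gene symbols as dates, of which 2 were higher and 1 lower, and these genes were not named.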
